A study of Mus musculus with 14 samples.

Results

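Sterol and fatty acid synthesis genes, 32 in a list drawn up by function, were followed in RNA of mice with floxed forkhead genes. Of the 32 genes, 31 had a probe set of their own on the array, 72 probe sets in all, and each gene was read from the probe set that was brightest over all 14 arrays. Of these 31, 30 passed the filter on dim probe sets and were tested, among 14263 genes tested of 18193 with a probe set. Acat2 had no probe set named in the annotation used here and was not analysed. Mvk, which encodes mevalonate kinase, stayed under the filter limit of 6.38 on the log2 scale, with group means from 4.04 to 6.06, and was not tested.

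Every mouse carried the floxed alleles Fk1 L/L, Fk2 L/L and Afx L/L, older names of Foxo1, Foxo3 and Foxo4, on the FVBn background. The experimental genotype also held MxCre, a Cre recombinase behind an interferon-inducible promoter that is active in many cell types, and its samples are called Cre+ here. Controls were MxCre- and kept the same floxed alleles. There were 3 control and 3 Cre+ samples of liver sinusoidal endothelial cells (LSEC), 2 and 2 of lung endothelial cells, and 2 and 2 of thymus, each hybridised to 1 Affymetrix mouse genome array. The labels do not state the ages, the way Cre was induced, the purification of the cells or whether samples came from separate animals, so the tests measure the spread between these samples, which may be technical.

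Array medians of the deposited log2 values lay between 6.75 and 7.04, and arrays of a group correlated at r of 0.970 to 0.987. On its brightest probe set Foxo1 differed between Cre+ and control by -0.93 in LSEC, -0.51 in lung and -1.19 in thymus (log2), and Foxo4 by -2.15, -1.10 and -3.24; the lung value passed for neither gene (limma adjusted p = 0.589 and 0.284). Foxo3 differed by -0.53, 0.10 and 0.68, and was thus higher, not lower, in the thymus samples labelled Cre+ (adjusted p = 0.0186). Of the 4 Foxo1 probe sets, those not chosen differed by -2.1, -3.56 and 1.73 in LSEC. The value of 1.73 came from a dim probe set under the filter limit, at 2.7 (SD 2.7) in control and 4.42 in Cre+ LSEC. In the same order they differed by -1.06, -1.29 and -0.37 in lung and by -1.02, -1.8 and -0.67 in thymus. The Foxo4 probe set not chosen differed by only -0.1 in LSEC, -0.61 in lung and -0.07 in thymus, so the larger Foxo4 values rest on the chosen one. The Foxo3 probe sets not chosen differed by -0.58 and -0.29 in LSEC, 0.3 and 0.01 in lung, and 0.46 and 0.02 in thymus. Where any of these Foxo probe sets lies against the floxed exons is not known here, so none serves as a strict check of deletion. Endothelial markers averaged 10.41 to 10.72 over control LSEC arrays and 9.51 to 9.91 over control lung arrays. Control lung arrays also carried the alveolar gene Sftpc at 12.10 and the collagen gene Col1a1 at 12.14, against 6.61 and 5.66 in control LSEC.

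Cells make cholesterol from acetyl-CoA through mevalonate, squalene and lanosterol, and make fatty acids from acetyl-CoA through malonyl-CoA. Both routes are driven by the membrane-bound transcription factors SREBP1 (gene Srebf1), mainly for fatty acids, and SREBP2 (gene Srebf2), mainly for sterols. INSIG proteins hold these factors in the endoplasmic reticulum when sterols are plentiful, and Insig1 is itself a target of the pathway. Sinusoidal endothelium clears lipoproteins and macromolecules from blood, while the alveolar epithelium of the lung makes lipid for surfactant.

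The promoters of 3 members are shown because they stand for the different behaviours described below: Insig1, which was lower in Cre+ LSEC, Fasn, which was higher, and Hmgcs1, a sterol pathway gene that did not pass. They run from 250 bases before to 50 bases after a transcription start, 5′ to 3′, in RefSeq's GRCm38.p6, at chr5:28071162-28071461 (plus strand), chr11:120824498-120824797 (minus strand) and chr13:119690101-119690400 (plus strand). Capitals mark matches, on either strand. The sterol regulatory element was searched as TCACNCCAC. Its core was searched as CACCCCAC, which the longer motif overlaps. The E-box was searched as CACGTG and the FoxO motif as GTAAACA. The CCAAT box was searched as its name spells it.
Insig1: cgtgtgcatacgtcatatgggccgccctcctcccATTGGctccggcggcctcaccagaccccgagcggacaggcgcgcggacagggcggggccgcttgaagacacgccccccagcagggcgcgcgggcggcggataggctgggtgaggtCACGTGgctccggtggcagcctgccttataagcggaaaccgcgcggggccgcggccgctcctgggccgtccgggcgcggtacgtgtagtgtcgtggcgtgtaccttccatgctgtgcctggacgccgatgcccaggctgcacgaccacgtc
Fasn: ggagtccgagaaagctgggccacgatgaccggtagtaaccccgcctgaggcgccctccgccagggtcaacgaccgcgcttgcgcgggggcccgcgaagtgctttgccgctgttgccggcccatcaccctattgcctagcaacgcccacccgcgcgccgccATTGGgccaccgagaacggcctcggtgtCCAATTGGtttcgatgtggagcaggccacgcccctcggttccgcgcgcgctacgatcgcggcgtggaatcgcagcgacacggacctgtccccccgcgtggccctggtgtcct
Hmgcs1: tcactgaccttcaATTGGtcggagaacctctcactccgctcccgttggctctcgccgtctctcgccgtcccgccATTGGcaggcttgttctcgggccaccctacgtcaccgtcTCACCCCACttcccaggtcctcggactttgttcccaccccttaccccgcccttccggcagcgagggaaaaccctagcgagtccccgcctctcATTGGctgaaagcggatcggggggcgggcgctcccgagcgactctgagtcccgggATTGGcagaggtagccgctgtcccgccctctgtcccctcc

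The Hmgcs1 promoter held the sterol regulatory element at position -137 from the start and 4 CCAAT boxes. The Insig1 promoter held an E-box at -101 and a CCAAT box at -216, and the Fasn promoter held 3 CCAAT boxes between -90 and -59. Promoter windows were given for 25 of the 32 genes, 32 windows in all, since some genes have several starts. CCAAT boxes stood in 22 of the 32 member windows (68.8%), against 37.4% of all 32851 windows of the same length. The sterol element stood in 1 member window against 1.24% of all windows, the E-box in 5 against 7.15%, and the FoxO motif in 1, of Elovl6, against 3.65%. The Acaca window, which lies inside the gene, held none of the motifs, and no window was given for Scd1 or Scd2. A match is a stretch of letters only, and its absence from a window of this length says nothing of binding elsewhere.

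In Cre+ LSEC 3 of 9 enzyme genes of fatty acid metabolism were higher and the feedback gene Insig1 was lower, while no enzyme gene of the sterol route passed the test. Scd2, which encodes a stearoyl-CoA desaturase, rose 1.71-fold, Fasn, the fatty acid synthase gene, 1.42-fold, and Acaca, the acetyl-CoA carboxylase gene that supplies malonyl-CoA, 1.25-fold. Insig1 was 1.66-fold lower. These 4 of 30 members were called at an adjusted p under 0.05 in limma, 3 higher and 1 lower, where 5.36% of all genes were called, 2.44% higher and 2.92% lower. Members were chosen with earlier results of these data known, so the count describes them and is not a test of the list.

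Scd2 stood at 9.44, 9.78 and 9.53 in control LSEC (log2 level) and at 10.20, 10.37 and 10.50 in Cre+ LSEC. The 2 groups did not overlap, and the log2 difference was 0.77 ± 0.13 (SE; limma adjusted p = 0.00629). Its other probe sets gave 0.75 and 0.77, both called in a fit over all probe sets (adjusted p = 0.00267 and 0.0350). Leaving out any single LSEC array gave 0.70 to 0.87, with adjusted p from 0.00851 to 0.0291.

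Fasn stood at 8.83, 8.86 and 8.59 on control arrays and at 9.18, 9.45 and 9.16 in Cre+ LSEC. All Cre+ arrays lay above all control arrays, by 0.51 ± 0.13 (log2 difference, SE; adjusted p = 0.0419). Acaca stood at 7.98, 7.89 and 7.76 on control arrays and at 8.17, 8.19 and 8.25 in Cre+ LSEC. Again the groups did not overlap, with a log2 difference of 0.32 ± 0.08 (SE; adjusted p = 0.0461), and a dimmer probe set gave 0.37 without passing. Both calls lie just under the threshold: each was lost when any 1 of the 6 LSEC arrays, of the lung arrays or of the control thymus arrays was left out, with log2 differences over the LSEC arrays left out of 0.41 to 0.55 for Fasn and 0.27 to 0.37 for Acaca. Acly, the ATP citrate lyase gene that feeds cytosolic acetyl-CoA to both routes, stood at 10.31, 10.28 and 10.28 on control arrays and at 10.34, 10.41 and 10.32 on Cre+ arrays, a log2 difference of 0.07 (95% interval -0.13 to 0.26).

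Insig1 stood at 9.94, 10.17 and 9.77 in control LSEC and at 9.09, 9.11 and 9.50 in Cre+ LSEC. No Cre+ array reached a control array, and the log2 difference was -0.73 ± 0.16 (SE; adjusted p = 0.0262). Without control array 1, control array 2, Cre+ array 1 or Cre+ array 2 the call was lost, and over all 6 such fits the difference ran from -0.86 to -0.62 (adjusted p 0.0204 to 0.0922). Insig1 has 1 probe set, so this value has no second reading on the array.

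The remaining genes of control and transport did not pass in LSEC. Srebf1 stood at 10.02, 10.09 and 9.99 on control arrays and at 9.71, 9.88 and 9.88 in Cre+ LSEC, a log2 difference of -0.21 (adjusted p = 0.260), with no overlap between the groups. Insig2, whose product acts like that of Insig1, stood at 9.20, 9.38 and 9.35 against 9.08, 9.08 and 9.06, a difference of -0.23 (adjusted p = 0.155). Srebf2 differed by 0.08 (95% interval -0.13 to 0.29). Stard4, which encodes a carrier of cholesterol between membranes, stood at 9.09, 9.10 and 8.89 against 9.25, 9.21 and 9.40, a difference of 0.26 (adjusted p = 0.193). Its dimmer probe sets gave -0.02 and 0.24, neither passing. Of the 30 members the Cre+ LSEC arrays lay wholly above the controls in 8 and wholly below in 4, where 12% and 10.9% of all genes did.

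**Figure D1:**
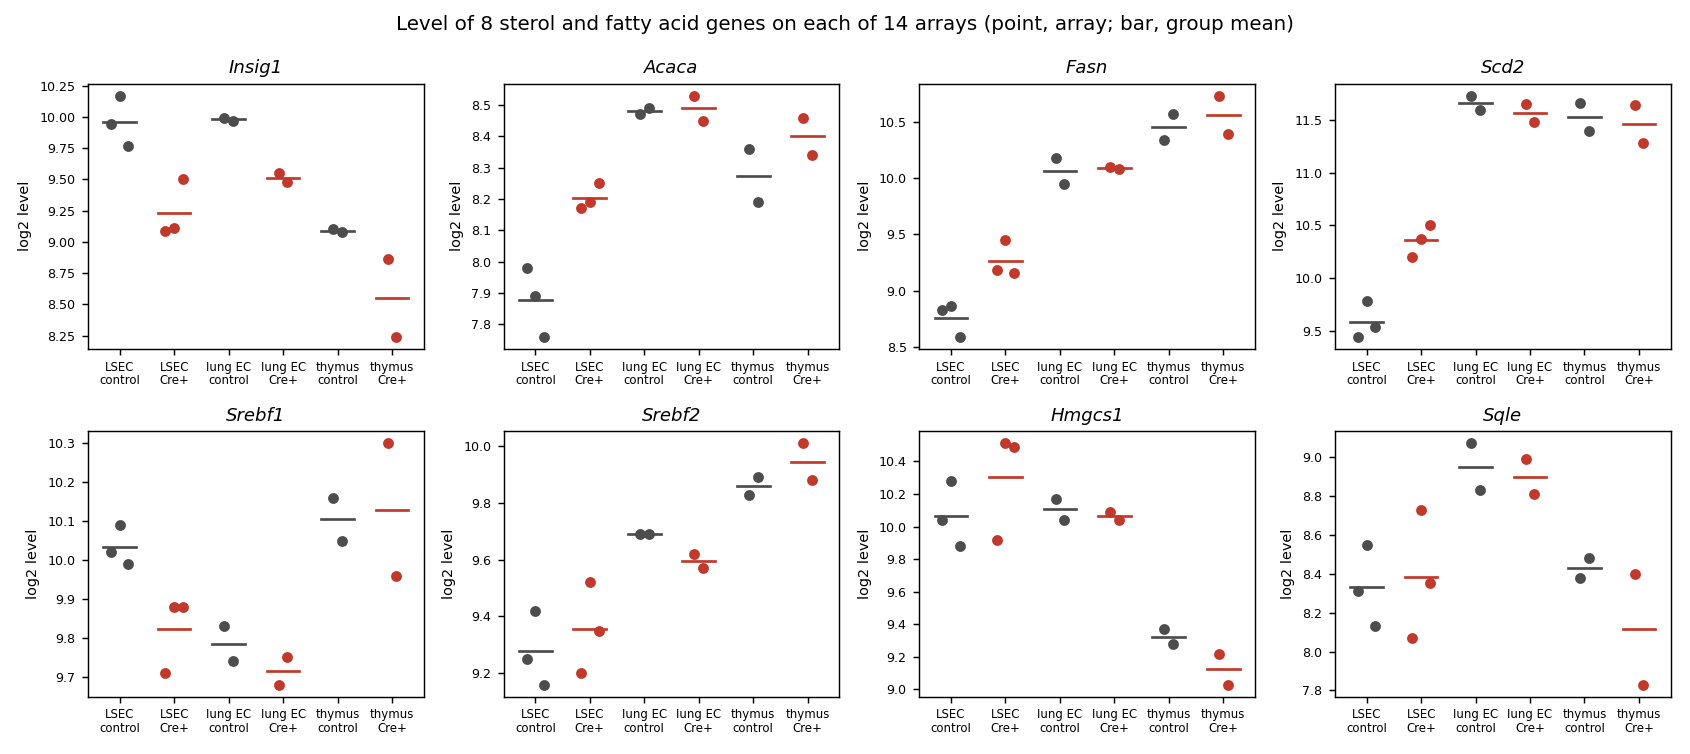
Log2 level (y axis) of 8 members on each array in the 6 groups (x axis); points are arrays, bars are group means, grey is control and red is Cre+, and each panel has its own y range. In LSEC the red points of Insig1 lie below the grey ones and those of Acaca, Fasn and Scd2 above them, while those of Hmgcs1 and Sqle overlap.

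Among the genes that lengthen and desaturate fatty acids, Scd2 was the single one called of 6. Scd1, which encodes the related desaturase best known from liver and fat, stood at 6.19, 6.62 and 6.48 in control and at 6.77, 7.14 and 6.83 in Cre+ LSEC. The arrays did not overlap, but the log2 difference of 0.48 did not pass (adjusted p = 0.0985), and the levels lie close to the filter limit of 6.38. The second Scd1 probe set was brighter in LSEC, at 7.16 in control and 7.36 in Cre+. It gave a smaller difference of 0.2 (adjusted p = 0.427 in the limma fit over all probe sets). Elovl5, an elongase gene of polyunsaturated fatty acids, differed by 0.18 (adjusted p = 0.348), and Elovl6, an elongase gene acting on palmitate, by 0.01 (95% interval -0.54 to 0.55). The desaturase genes of polyunsaturated fatty acids, Fads1 and Fads2, differed by -0.08 and -0.14 (adjusted p = 0.760 and 0.571). For Fads1 (0.13), Fads2 (0.09 and 0.2) and Elovl6 (-0.27) dimmer probe sets past the filter had the opposite sign, without passing. Over the 9 enzyme genes of fatty acid metabolism the median log2 difference was 0.18, against 0.01 over all genes tested, and in 6 of the 9 the Cre+ arrays all lay above the control arrays, where 12% of all genes did so.

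Of the 16 tested enzyme genes of the sterol route none was called in LSEC, and their median log2 difference was 0.03, with a range from -0.43 to 0.41; limma gave an unadjusted p under 0.05 for 1 of the 16, and for 18.9% of all genes. Along the mevalonate steps, Idi1, the isopentenyl diphosphate isomerase gene, stood at 9.03, 9.15 and 8.72 on control arrays and 8.98, 9.50 and 9.43 in Cre+ LSEC, a difference of 0.34 (adjusted p = 0.275). Hmgcs1, which encodes the synthase that makes HMG-CoA, stood at 10.04, 10.28 and 9.88 against 9.92, 10.51 and 10.49, a difference of 0.24 (95% interval -0.10 to 0.58). In both, Cre+ array 1 lay among the control arrays and the other Cre+ arrays lay above them. Fdps, which makes farnesyl diphosphate, differed by 0.11, the kinase gene Pmvk by 0.05 and the decarboxylase gene Mvd by -0.22, none of them passing.

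On the way from squalene to cholesterol, Dhcr7, the gene of the last reductase, stood at 6.75, 7.20 and 7.03 on control arrays and 7.38, 7.36 and 7.48 in Cre+ LSEC. These groups did not overlap, and the difference of 0.41 did not pass (adjusted p = 0.199). Hsd17b7, a keto-reductase gene of sterol demethylation, stood at 7.67, 8.03 and 8.10 against 7.65, 7.78 and 7.17 on its brightest probe set, a difference of -0.39 (adjusted p = 0.393), while a dimmer probe set gave 0.66 (adjusted p = 0.0372 in a fit over all probe sets), so the probe sets of this gene disagree in direction. Sqle, the squalene epoxidase gene, differed by 0.06 (95% interval -0.36 to 0.47), Fdft1, the squalene synthase gene, by 0.06, and Msmo1, a methylsterol oxidase gene, by 0.02. The lanosterol genes Lss and Cyp51, of the synthase and the demethylase, differed by 0.09 and -0.11. The differences of Tm7sf2, Nsdhl, Ebp and Sc5d, genes of later reduction, demethylation, isomerase and desaturase steps, were -0.43, -0.33, -0.08 and -0.06, none passing. Dimmer probe sets past the filter had the opposite sign, without passing, for Fdft1 (-0.06 and -0.58), Cyp51 (0.32) and Lss (-0.22). For Sc5d they gave -0.04 and 0.34, also without passing.

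**Figure D2:**
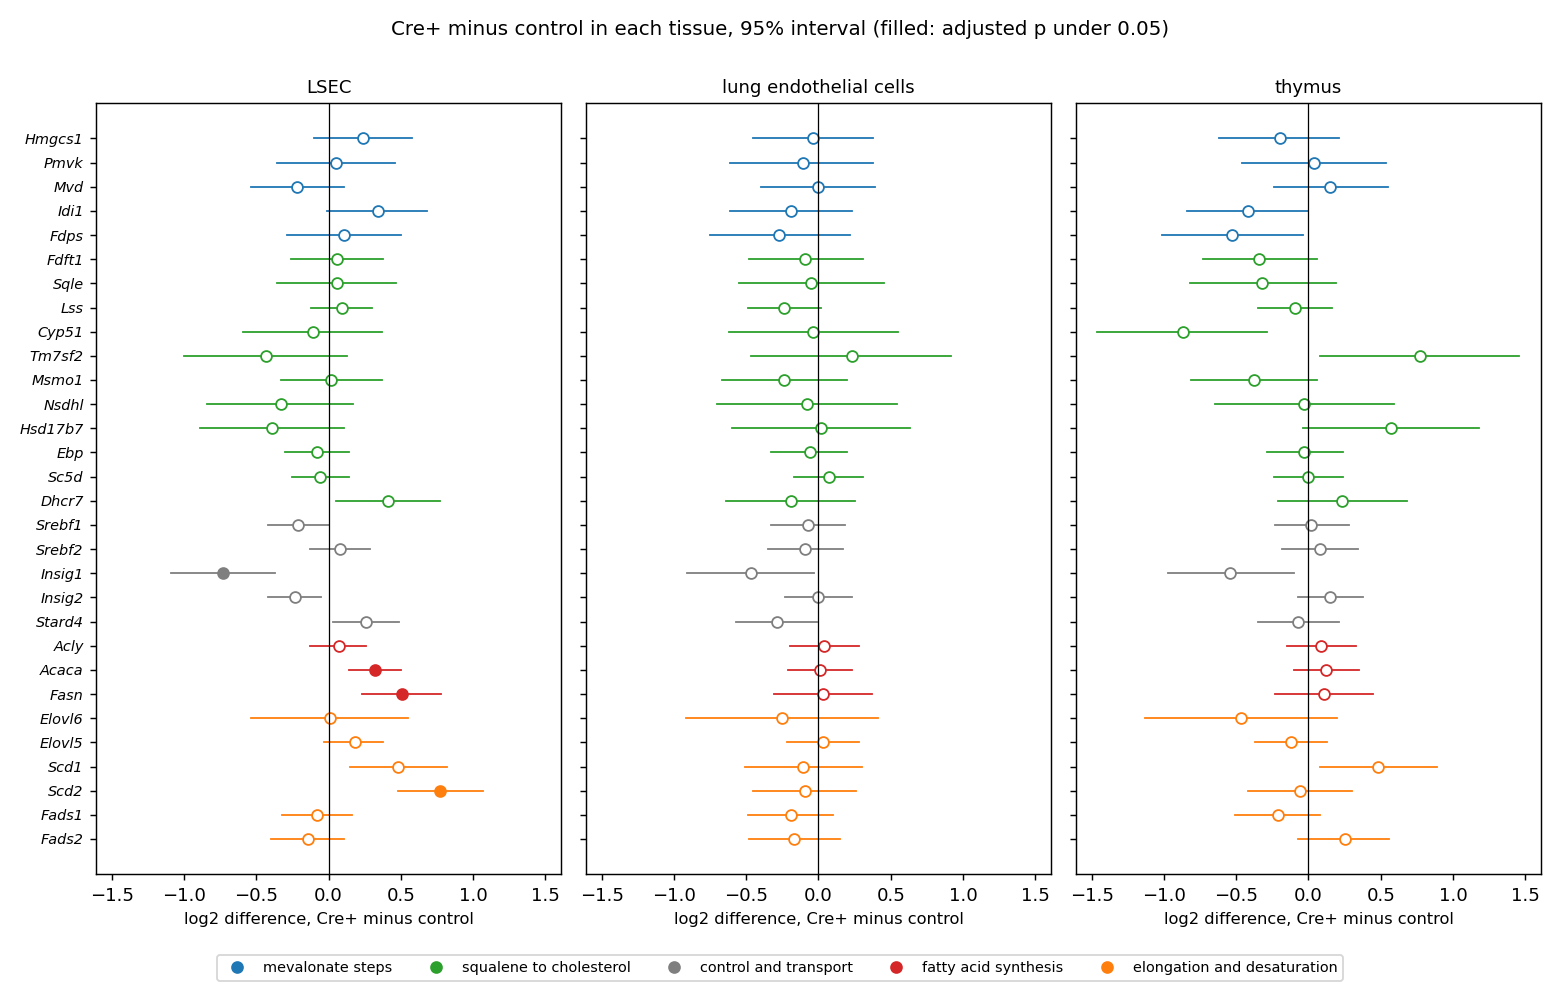
Log2 difference, Cre+ minus control (x axis), of the 30 tested members (y axis, ordered by role) in LSEC, lung endothelial cells and thymus. Lines are 95% intervals from the limma fit and filled points have an adjusted p under 0.05; the 4 filled points, Insig1, Acaca, Fasn and Scd2, are all in LSEC.

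The levels of sinusoidal markers differed with genotype beside these values. Of 7 LSEC markers 6 were called lower in Cre+ LSEC, where 2.92% of all genes were. The mean of the 7 lay at 10.93 to 11.52 over control arrays and at 8.95 to 9.70 over Cre+ arrays. Markers of cells rich in lipid synthesis did not pass: 0 of 6 tested hepatocyte markers and 0 of 3 tested adipocyte markers were called in LSEC. Hepatocyte markers averaged 6.72 to 6.84 over control and 6.58 to 7.06 over Cre+ LSEC arrays, and adipocyte markers 5.91 to 6.23 and 5.75 to 5.82, with the adipokine genes Adipoq at 4.12 and 3.71 and Retn at 7.92 and 7.80. Of the 7 hepatocyte markers 6 lay above the filter limit in control LSEC: Alb averaged 6.75 in control and 6.61 in Cre+ LSEC, Apoa1 8.32 and 8.42, and Ttr 7.55 and 8.10, the last without overlap and at the edge of the test (adjusted p = 0.05004). Of 5 proliferation genes Mcm5 rose by 0.79, while the list mean overlapped between the groups (7.97 to 8.73 and 8.31 to 8.69). Macrophage markers averaged 8.71 to 9.95 over control and 8.86 to 10.05 over Cre+ LSEC arrays, none of them called. The macrophage gene Cd68 was highest on control array 3 (11.81) and Cre+ array 1 (11.59), against 10.63 to 10.85 on the others. Within their groups these arrays also had the lowest means of the sterol enzyme genes (deviations of -0.08 and -0.17, described below). The part of hepatocyte or macrophage RNA, of the change in sinusoidal markers or of Mcm5 in the member values was not tested. In such bulk samples fewer cells of a type and less RNA per cell cannot be told apart.

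Other genes of lipid handling, 48 in a list that held no member, were read the same way. In LSEC 40 were tested, 1 rose and 3 fell, where 5.36% of all genes were called (2.44% higher, 2.92% lower), and the median log2 difference was -0.02. Cpt1a, which encodes the carnitine transferase that admits fatty acids to mitochondria for oxidation, rose from 9.74, 9.66 and 9.76 to 10.40, 10.18 and 10.35 (log2 difference 0.59, adjusted p = 0.00994). Mylip, which encodes a sterol-induced ubiquitin ligase of lipoprotein receptors, fell from 10.69, 11.11 and 10.50 to 9.81, 8.87 and 9.44 (difference -1.40, adjusted p = 0.00382). Lpl, the lipoprotein lipase gene, fell by 1.40 (adjusted p = 0.0123) and Pnpla2, the adipose triglyceride lipase gene, by 0.54 (adjusted p = 0.00951). In each of these 4 genes the control and Cre+ LSEC arrays did not overlap, as in 22.8% of all genes tested.

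In lung endothelial cells none of the 30 members was called, in a comparison where 0.0841% of all genes were, 0.021% higher and 0.0631% lower. Unadjusted, limma gave a p under 0.05 for 2 members, Insig1 and Stard4, and for 4.53% of all genes. Insig1 stood at 9.99 and 9.97 in control and at 9.55 and 9.48 in Cre+ samples, 1.38-fold lower (log2 difference -0.47, adjusted p = 1). Stard4 stood at 9.13 and 8.80 against 8.64 and 8.72, a difference of -0.29. Both genes were lower on each Cre+ array than on either control array. The 3 genes that rose in LSEC did not pass here. On the brightest probe sets Scd2 differed by -0.09 (95% interval -0.45 to 0.26), Fasn by 0.03 (-0.31 to 0.37) and Acaca by 0.01 (-0.21 to 0.23). The dimmer probe sets lay lower, at -0.48 and -0.56 for Scd2 and -0.38 for Acaca, without passing.

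Small differences of the members in lung endothelial cells were more often below 0 than above. The log2 difference was below 0 in 22 of 30 members (73.3%), against 45.4% of all genes tested, with medians of -0.08 and 0.02. The arrays of the groups did not overlap for 38.3% of all genes, 21.5% with Cre+ higher and 16.7% with Cre+ lower; among the members 1 was higher and 13 were lower. Among the 13 were Fdps (9.83 and 9.38 against 9.33 and 9.34), Lss (8.71 and 8.73 against 8.41 and 8.55), Msmo1 (9.53 and 9.37 against 9.24 and 9.19) and Fads1 (10.36 and 10.31 against 10.19 and 10.09). For Lss and Fads1 dimmer probe sets past the filter gave 0.12 and 0.19, opposite in sign and without passing. Members share arrays and regulation, so they are not independent readings, and no single one passed. Epithelial markers averaged 10.25 on both control arrays and 10.15 and 10.49 on the Cre+ arrays, and mesenchymal markers 11.01 to 11.17 and 10.98 to 11.03. Endothelial markers averaged 9.51 to 9.91 on control and 9.20 to 9.36 on Cre+ lung arrays, markers of lung endothelium 8.60 to 8.62 and 8.87 to 8.93, and macrophage markers 8.62 to 8.67 and 8.98 to 9.16, so these lists did not overlap between genotypes, though none of their genes was called. Their part in the member values was not tested.

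In thymus, too, none of the 30 members was called, where 0.323% of all genes were (0.126% higher, 0.196% lower); limma gave an unadjusted p under 0.05 for 5 of them, Cyp51, Fdps, Insig1, Scd1 and Tm7sf2, and for 11.7% of all genes. Insig1 stood at 9.10 and 9.08 in control and at 8.86 and 8.24 in Cre+ thymus, a log2 difference of -0.54 (adjusted p = 0.324). Cyp51 stood at 6.51 and 6.79 against 6.21 and 5.35, a difference of -0.87 (adjusted p = 0.210). Scd1 was the one of these that was higher without overlap, at 9.70 and 9.44 against 10.16 and 9.95 (difference 0.48, adjusted p = 0.340), while Scd2 differed by -0.06. The second Scd1 probe set gave 0.1 in thymus, also without passing.

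Of the Cre+ thymus arrays, array 2 was lower than array 1 for 10 of the 16 tested sterol enzyme genes and higher for 6. That split is near even and the share over all genes was not taken, so nothing particular to the sterol route is shown. Array 2 gave 8.32 for Fdps, 7.25 for Msmo1, 7.83 for Sqle and 6.74 for Fdft1, where array 1 gave 8.80, 7.93, 8.40 and 7.05. In the other direction it gave 9.32 for Hsd17b7, 7.77 for Tm7sf2 and 9.24 for Mvd, where array 1 gave 8.54, 7.04 and 8.58. The control arrays of Fdps, Msmo1, Sqle and Fdft1 lay closer together than that. Over the 30 members the groups did not overlap with Cre+ higher in 3 and lower in 9; for all genes the share was 41.1%, 22.7% higher and 18.4% lower. With Cre+ array 2 left out the difference of Cyp51 was -0.44 (adjusted p = 0.671), and with Cre+ array 1 left out it was -1.31 (adjusted p = 0.0373). In that fit the remaining array is assumed to vary like the other groups. Adipocyte markers, 4 of 6 with a probe set, averaged 6.81 to 6.99 in control and 7.59 to 7.78 in Cre+ thymus, Adipoq 7.58 and 8.46, and none of 3 tested was called. Proliferation markers averaged 11.13 to 11.15 and 10.56 to 10.74, none called, and mesenchymal markers 8.44 to 8.52 and 8.97 to 8.99, 1 called. The part of these cell mixtures in the thymus values was not tested.

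**Figure D3:**
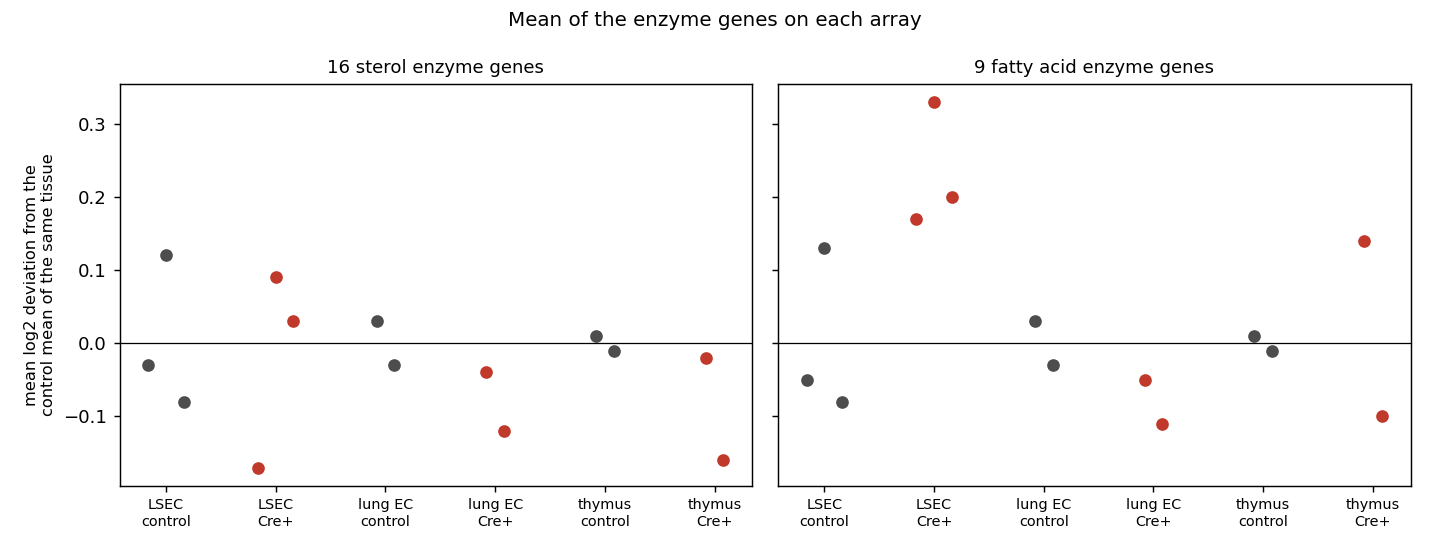
Mean log2 deviation (y axis) of the 16 tested sterol enzyme genes and of the 9 fatty acid enzyme genes from the control mean of the same tissue, on each array of the 6 groups (x axis). Points are arrays, grey control and red Cre+; in LSEC the sterol means overlap between groups, from -0.08 to 0.12 in control and -0.17 to 0.09 in Cre+, and the fatty acid means do not, from -0.08 to 0.13 and 0.17 to 0.33.

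Per array, the sterol enzyme genes together deviated from the control mean of their tissue by -0.03, 0.12 and -0.08 in control LSEC and by -0.17, 0.09 and 0.03 in Cre+ LSEC. The fatty acid enzyme genes deviated by -0.05, 0.13 and -0.08 and by 0.17, 0.33 and 0.20. In lung endothelial cells the Cre+ arrays gave -0.04 and -0.12 for sterol genes and -0.05 and -0.11 for fatty acid genes. In thymus they gave -0.02 and -0.16, and 0.14 and -0.10. In LSEC every Cre+ mean of the fatty acid genes lay above every control mean. That mean rests on Scd2, Fasn, Scd1 and Acaca, with differences of 0.32 to 0.77, while those of the other five genes ran from -0.14 to 0.18. For Scd1 the probe set not used in the mean gave a smaller difference, 0.2. The difference between the fatty acid and sterol lists was not tested.

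Whether a genotype effect differed between tissues was tested as an interaction in limma. No member passed in any of the 3 pairs of tissues, where 0.491% of genes did for LSEC against lung (0.217% higher, 0.273% lower), 1.89% for LSEC against thymus (0.673% higher, 1.21% lower) and 0.028% for lung against thymus (0.00701% higher, 0.021% lower). Unadjusted, 6, 7 and 2 of the 30 had a p under 0.05, where 9.16%, 15.6% and 7.54% of all genes did. Scd2 came closest: its effect in LSEC exceeded that in lung by 0.87 (95% interval 0.41 to 1.33, adjusted p = 0.127) and that in thymus by 0.84 (0.38 to 1.30, adjusted p = 0.0721). One dimmer Scd2 probe set passed for both, at 1.23 and 0.86 (adjusted p = 0.0189 and 0.0349 in the fit over all probe sets). For Fasn the excess over lung was 0.48 (0.04 to 0.92, adjusted p = 0.493) and for Acaca 0.31 (0.03 to 0.60, adjusted p = 0.494). The effect on Insig1 in LSEC differed from that in lung by -0.26 (-0.83 to 0.30) and from that in thymus by -0.19 (-0.76 to 0.37). Insig1 was lower in every one of the 7 Cre+ samples than in all control samples of its tissue, but was called in LSEC alone. Lower without overlap were also 10.9% of all genes in LSEC, 16.7% in lung and 18.4% in thymus. The share of genes lower in all 3 tissues was not taken, so nothing particular to Insig1 is shown by this. No difference of its effect between tissues was detected at this number of arrays.

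Control samples differed far more between tissues than genotypes did within them. Control LSEC stood lower than control lung endothelial cells for 14 members and higher for 1, Insig2, of 30; 18.9% of all genes were lower, 24.4% higher and 43.2% called in all. Without control lung array 1 the members lower numbered 9, and Fdft1 was the one sterol enzyme gene among them. All 6 genes of elongation and desaturation were among the lower ones on their brightest probe sets. The second Elovl5 probe set, at 10.03 in LSEC and 10.08 in lung, gave a log2 difference of -0.05 and did not pass. Scd1 averaged 6.43 ± 0.22 (SD, n = 3) in control LSEC and 11.13 ± 0.03 (SD, n = 2) in lung, a log2 difference of -4.70, or 26.0-fold, whose size is uncertain because the LSEC level is close to the filter limit and the second Scd1 probe set gave -2.07. Scd2 was 4.22-fold lower in LSEC (9.58 ± 0.18 and 11.66 ± 0.10), Elovl6 4.44-fold, Fasn 2.47-fold and Fads1 2.16-fold, with adjusted p from 1.81e-06 for Scd2 to 0.000103 for Elovl6. Elovl6, too, was close to the limit in LSEC, at 6.53. The second Fads1 probe set gave 0.15 and did not pass, so the probe sets of this gene disagree. In the sterol route 5 of 16 were lower, among them Fdft1 (2.13-fold), Cyp51 (1.60-fold) and Sqle (1.54-fold), and none was higher. The Fdft1 difference was 0.01 when all its probe sets were averaged, and Cyp51 then no longer passed in any of the 3 tissue pairs. Epithelial markers averaged 6.22 to 6.83 over control LSEC and 10.25 on both control lung arrays, and mesenchymal markers 7.16 to 7.69 and 11.01 to 11.17. The part of these other lung cells in the lung levels was not tested.

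Against control thymus, control LSEC was higher for 9 members and lower for 8 of 30, where 61.8% of all genes were called, 35.8% higher and 26% lower. Without control thymus array 2 the members higher numbered 5. Of 16 sterol enzyme genes 6 were higher and 1 lower, and of 9 fatty acid enzyme genes 1 was higher and 6 were lower. Msmo1 was 3.15-fold higher in LSEC (9.62 ± 0.08, n = 3, and 7.97 ± 0.00, n = 2, SD), Cyp51 1.90-fold and Hmgcs1 1.67-fold. Dhcr7 was 3.43-fold lower (6.99 and 8.77), the one sterol enzyme gene called in that direction on its brightest probe set. Sc5d, among the higher ones at a log2 difference of 0.35, gave 1.49 and -1.11 on its dimmer probe sets. The lower value was called too (adjusted p = 0.000177 in the limma fit over all probe sets), so the probe sets of Sc5d disagree in direction. Scd1 was 8.82-fold, Scd2 3.84-fold and Fasn 3.23-fold lower in LSEC, and Fads1 was 2.65-fold higher. The second probe set of Scd1 gave a log2 difference of -0.75 and that of Fads1 0.00, so the size for Scd1 and the call for Fads1 rest on the brighter one. Insig1 was 1.83-fold higher and Srebf2 lower by a log2 difference of -0.58.

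Control lung endothelial cells stood above control thymus for 10 members and below it for 5 of 30, where 31.1% and 26% of all genes did (57.1% called in all). The members lower numbered 2 without control lung array 1 and 1 without control lung array 2 or control thymus array 2. On the brightest probe sets Fads1 differed 5.71-fold (10.33 and 7.82; adjusted p = 3.51e-08), Elovl6 3.73-fold, Cyp51 3.05-fold and Scd1 2.95-fold. The dimmer Fads1 probe set gave a log2 difference of -0.15 without passing, opposite in sign, while those of Elovl6, Cyp51 and Scd1 gave 1.67, 1.08 and 1.31. Dhcr7 was 2.67-fold lower in lung. For Scd2 the 2 tissues were close (11.66 ± 0.10 and 11.52 ± 0.19, n = 2 each, SD; log2 difference 0.14), both above LSEC. The 3 comparisons share their control samples, so they are not independent. The counts against thymus depended on the scaling of the arrays: LSEC against thymus gave 9 higher and 8 lower after quantile normalization, 10 and 7 after median centring and 5 and 8 as deposited, and lung against thymus 10 and 5, 13 and 1, and 10 and 2.

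**Figure D4:**
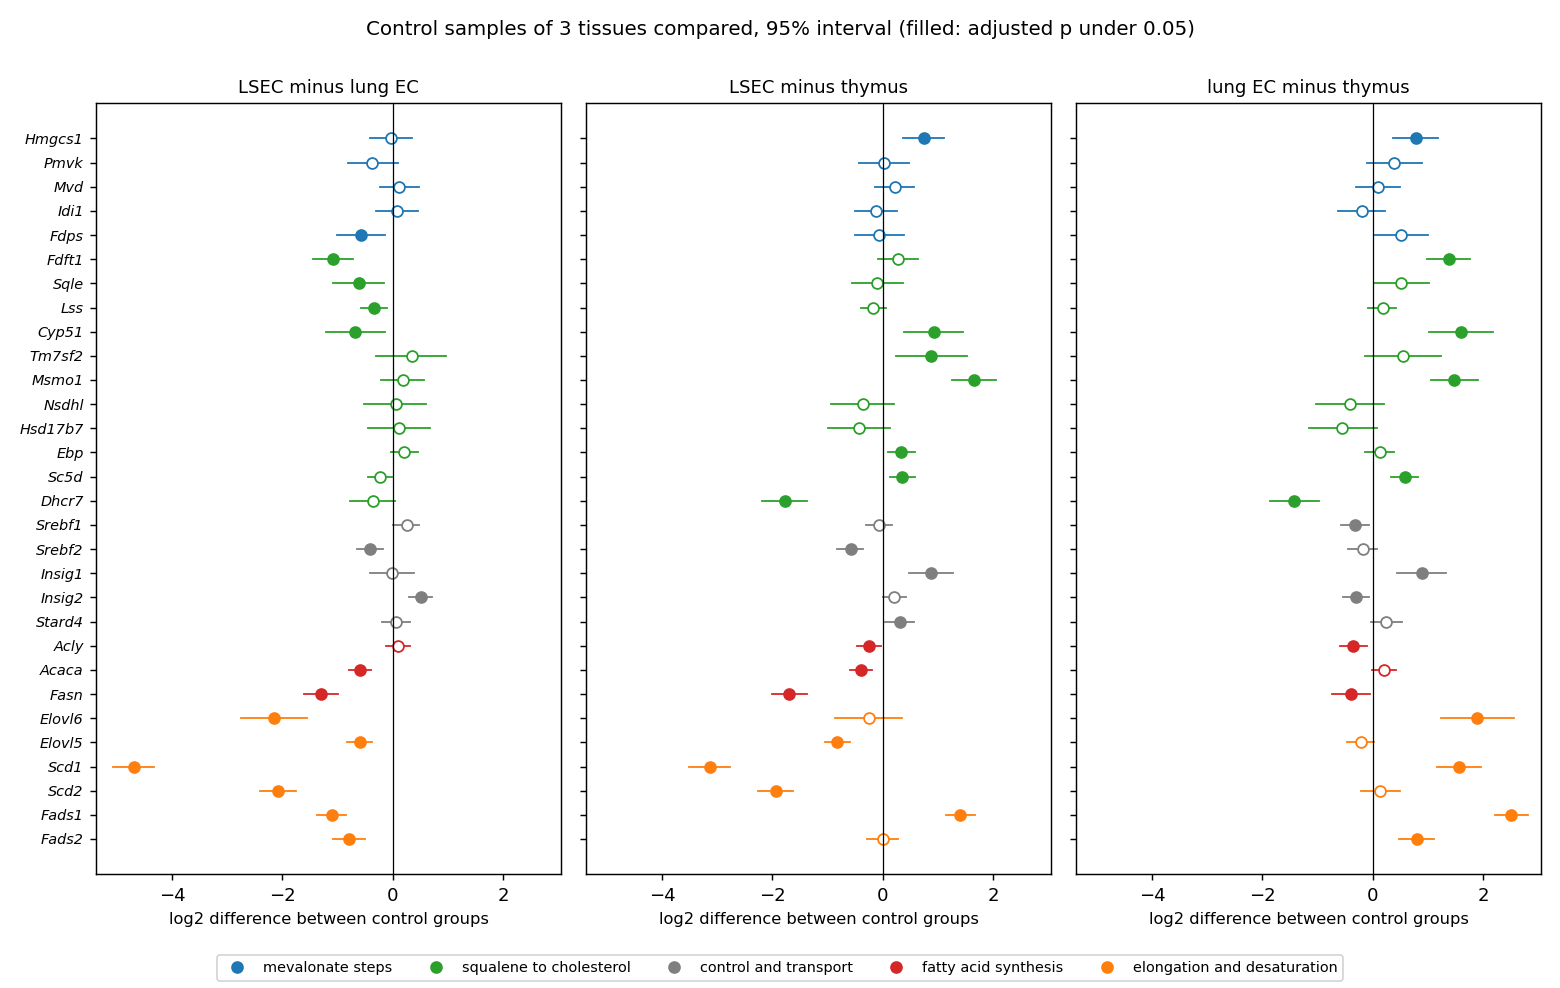
Log2 difference between control groups (x axis) for the 30 tested members (y axis, ordered by role) in 3 pairs of tissues, with 95% intervals; filled points have an adjusted p under 0.05. The fatty acid genes at the bottom lie mostly left of 0 in the first and middle panels, with Scd1 farthest at -4.70 and -3.14.

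In the order of control levels, Scd2 and Fasn were lowest in LSEC, and thymus stood above lung for Fasn (10.45 ± 0.16 and 10.06 ± 0.16, adjusted p = 0.0493, a call lost with median centring and on deposited values) while the neighbours lung and thymus were not told apart for Scd2. Cre+ LSEC kept that order for these genes: at 10.36 ± 0.15 for Scd2 and 9.27 ± 0.16 for Fasn (SD, n = 3) they remained below every lung and thymus array. Acaca reached 8.20 ± 0.04 in Cre+ LSEC, within the spread of control thymus, 8.36 and 8.19, and below both control lung arrays, 8.47 and 8.49. Insig1 in Cre+ LSEC, 9.23 ± 0.23, came to lie between control LSEC, 9.96 ± 0.20, and control thymus, 9.09 ± 0.01.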

How the data were processed

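The table the authors deposited holds log2 values of 45101 probe sets on 14 arrays; the log base was inferred from the range of values, and the authors' summarization and normalization are nowhere stated in the labels. Values at the floor of exactly 0 numbered 223 to 312 per array. Array medians spread over 0.282, so arrays were quantile normalized. Probe sets took symbols from the supplied platform annotation (34958 with 1 symbol, 932 with several, 9211 with none; 34754 matched a RefSeq gene of GRCm38.p6). Each gene was read from its brightest probe set and tested when a tissue mean reached 6.38, the 40th percentile of probe set means. With limma 3.58.1 in R 4.3.3, 1 model with a mean for each of 6 groups took in all 14 arrays (lmFit, eBayes, 8 residual and 3.06 prior degrees of freedom), and p-values were adjusted by Benjamini-Hochberg over all 14263 genes within a contrast at 0.05. The fit was checked on simulated data. For arrays, their number limits the precision. The members and lists were chosen with earlier results of these data known. By the rule for named genes, array values are given for members called in a genotype or interaction contrast and otherwise for the 2 of each role with the smallest adjusted p in LSEC, and from the lipid handling list for called genes; further array values were picked after they were seen. Alternatives were median centring, deposited values, no filter and the 60th percentile, means of probe sets, trend and robust eBayes, array weights, only the arrays compared, a replicate block, and each array left out. Same-numbered control and Cre+ samples were checked for pairing and not treated as pairs. The lists of cell type markers covered endothelium, LSEC, lung endothelium, hepatocytes, lung epithelium, adipocytes, macrophages, mesenchyme, thymocytes and proliferation.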

Additional observations from a re-analysis of the deposited data

Results flagged for a closer look

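Lpl, the lipoprotein lipase gene, was the one gene called in an interaction among the 30 members and 40 tested genes of lipid handling, each on its brightest probe set. For LSEC against thymus 1.89% of all genes were called. A dimmer Scd2 probe set also passed in an interaction, as given above, and a gene that was not called may still differ. Its log2 level went from 10.70, 10.40 and 11.23 in control to 10.01, 9.11 and 9.02 in Cre+ LSEC, and from 9.12 and 8.63 to 9.79 and 9.48 in thymus. The effect in LSEC minus that in thymus was -2.15 ± 0.43 (SE; limma interaction, adjusted p = 0.0299), while the effect in thymus alone, 0.76, did not pass (adjusted p = 0.410).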

How the results depend on the processing

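Of the 4 members called in LSEC, Scd2 was called under all 10 settings that kept every array and in all 6 fits without 1 LSEC array, Insig1 under 6 and 2, Fasn under 4 and 0, and Acaca under 2 and 0; the direction held in every one of these fits. The count of members called in LSEC was 2 (1 higher, 1 lower) with median centring and with array weights, 1 without a filter, with only the arrays compared, with the replicate block and with the block after the lung numbers were crossed (chosen after seeing the data), and 1 to 2 with 1 LSEC array left out (1 to 4 over all 14 arrays, 4 when a Cre+ thymus array was left out), against 4 (3 and 1) as reported and 3 (2 and 1) on the values as deposited. In thymus it was 0 to 1 with 1 array left out, Cyp51 being the 1. For the effect in LSEC minus lung it was 1 (Scd2) with the mean of all probe sets; for LSEC minus thymus it was 1 (Scd2) with that mean and with trend and robust on, and 0 to 2 with 1 array left out. The cause was not tested. With the mean of all probe sets, 4 control differences turned sign without passing: Acly became 0.21 for LSEC against thymus and 0.13 for lung against thymus, Fdft1 0.01 for LSEC against lung and Insig2 0.01 for lung against thymus. The median of all genes for control LSEC against thymus was 0.110 after quantile normalization, 0.191 after median centring and -0.027 as deposited. Over all genes, LSEC calls numbered 764, but 306 with only the arrays compared, 328 with the replicate block and 478 without control array 2; lung calls ran from 0 to 44 and thymus calls from 4 to 198. Same-numbered LSEC samples deviated together at r of -0.250, -0.0653 and -0.214, lung samples at -0.236 and thymus samples at 0.0368. In LSEC r was thus below 0 for every same-numbered pair. With 2 arrays per group, crossed numbers give the same r with its sign turned, so the lung and thymus values cannot decide whether samples were paired. With the lung numbers crossed, LSEC calls were 380 and lung calls 1.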
